A study of Mus musculus with 15 samples.

Results

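The poly-ADP-ribose polymerase family was described here by 10 of the 52526 genes measured in mouse mammary tissue: Parp1, Parp2, Parp3, Parp4, Parp6, Parp8, Parp10, Parp11, Parp12 and Parp16. They were chosen by their gene names, after the level of Parp12 had been seen to be higher in mice given BDE-47, and the question was whether that difference extended to the rest of the family. All 10 were found in the table of every mouse. Because Parp12 was selected on this difference, its values are a description and were not tested.

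The tissue was the left 4th mammary tissue of 15 female nude mice (nu/nu, Crl:NU-Foxn1nu), an athymic strain that lacks most T cells and was used so that xenografts could be placed in the same animals. After 8 weeks of age, 7 mice received BDE-47, a brominated flame retardant of the polybrominated diphenyl ether (PBDE) class (intended amount 0.03 mg/kg per day, over 16 weeks). The compound was delivered by osmotic mini-pumps under the skin, in a vehicle of PEG300 with 1% DMSO. The other 8 mice carried pumps with this vehicle alone, so every mouse had the strain, the surgery and the vehicle in common. Each mouse gave 1 library, and the labels do not say which mice bore a xenograft. Libraries were made from the 3′ ends of transcripts (QuantSeq 3′ FWD), so a value reflects the number of transcript ends and not the length of the gene. Values are log2 of counts per M mapped reads (CPM), and every gene under 1 CPM is listed at 0, which is called the floor below.

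The enzymes of this family transfer ADP-ribose from NAD+ to proteins or nucleic acids. PARP1 and PARP2 build long chains of it at DNA breaks, where the chains recruit repair factors, whereas most of the other members add 1 ADP-ribose unit at a time and act in stress granules, the endoplasmic reticulum, membrane traffic or the antiviral response. Several of the latter, among them PARP9, PARP10, PARP11, PARP12, PARP14 and the zinc finger protein encoded by Zc3hav1, are known to be induced by interferon. The study was about DNA integrity and innate immunity in mammary tissue, and the family has members in each.

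RefSeq promoter windows of 300 bases, running from 250 bases before a transcription start to 50 bases after it, were available for 9 of the 10 genes, and Parp10 had no entry. The following windows (GRCm38.p6) are those of the 4 genes whose group means differed by 2-fold or more. The first of 2 windows of Parp11 was added because it held matches to both motifs searched. Capitals mark matches to GAAANNGAA, the core of the interferon-stimulated response element, or to TTCNNNGAA, the gamma-activated sequence of interferon-responsive promoters, on either strand.
Parp12 lies on the minus strand and its window is chr6:39118300-39118599.
Parp12: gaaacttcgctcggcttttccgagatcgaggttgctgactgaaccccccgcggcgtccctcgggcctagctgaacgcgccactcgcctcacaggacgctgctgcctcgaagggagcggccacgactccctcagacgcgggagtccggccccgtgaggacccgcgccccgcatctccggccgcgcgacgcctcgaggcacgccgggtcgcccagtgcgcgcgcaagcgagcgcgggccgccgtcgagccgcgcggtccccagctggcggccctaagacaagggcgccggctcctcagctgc
Parp6 lies on the plus strand and its window is chr9:59617034-59617333.
Parp6: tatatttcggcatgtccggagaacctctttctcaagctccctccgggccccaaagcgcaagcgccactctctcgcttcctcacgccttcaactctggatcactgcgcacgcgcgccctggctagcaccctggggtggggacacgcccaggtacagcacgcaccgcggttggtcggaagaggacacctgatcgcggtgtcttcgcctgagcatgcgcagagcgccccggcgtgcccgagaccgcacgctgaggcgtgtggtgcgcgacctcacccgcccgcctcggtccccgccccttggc
Parp3 lies on the minus strand and its window is chr9:106476900-106477199.
Parp3: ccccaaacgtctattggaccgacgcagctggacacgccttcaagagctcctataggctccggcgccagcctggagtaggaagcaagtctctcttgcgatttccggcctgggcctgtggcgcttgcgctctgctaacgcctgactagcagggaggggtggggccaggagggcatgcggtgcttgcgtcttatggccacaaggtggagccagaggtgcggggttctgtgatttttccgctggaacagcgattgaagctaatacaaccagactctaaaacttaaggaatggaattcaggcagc
Parp4 lies on the plus strand and its window is chr14:56575369-56575668.
Parp4: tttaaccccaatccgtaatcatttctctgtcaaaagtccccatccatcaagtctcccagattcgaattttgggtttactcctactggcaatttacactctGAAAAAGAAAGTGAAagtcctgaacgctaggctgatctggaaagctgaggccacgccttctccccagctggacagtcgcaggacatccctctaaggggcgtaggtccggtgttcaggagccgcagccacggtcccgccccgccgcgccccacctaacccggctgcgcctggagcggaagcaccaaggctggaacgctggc
The first of 2 windows of Parp11 lies on the plus strand at chr6:127446590-127446889.
Parp11: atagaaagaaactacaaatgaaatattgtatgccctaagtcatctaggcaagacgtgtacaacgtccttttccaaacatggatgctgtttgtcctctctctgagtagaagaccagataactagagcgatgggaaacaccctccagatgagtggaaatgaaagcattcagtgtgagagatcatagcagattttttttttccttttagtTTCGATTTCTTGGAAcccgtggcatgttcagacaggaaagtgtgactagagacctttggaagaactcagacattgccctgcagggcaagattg

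The Parp12 window was the richest in G and C among those of the listed genes, at 73.7%, and held 1.14 times the CG pairs that its base composition predicts. Across the 10 windows of listed genes the share of G and C ranged from 42.0% to 73.7% with a median of 59.5%, beside a median of 52.7% over all 32851 windows of this length. Neither motif occurred in the windows of Parp12, Parp6 or Parp3, which says only that these letters are not in these 300 bases. In the Parp4 window, 2 overlapping matches to GAAANNGAA began 150 and 144 bases before the start, and together they form the single run in capitals. In the first Parp11 window 1 match to GAAANNGAA overlapped 1 match to TTCNNNGAA, and the second Parp11 window, not printed, held neither motif. The remaining match among the listed genes was a TTCNNNGAA in the window of Parp16. In all, 2 of 10 windows held GAAANNGAA, beside 8.56% of all windows, and 2 of 10 held TTCNNNGAA, beside 8.30% of all windows. The capitals are letter matches, and no binding was measured.

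Parp12, a zinc finger mono-ADP-ribosyltransferase of the Golgi and of stress granules that restricts several RNA viruses, is the gene by which the family was chosen. In the vehicle mice it was listed at 0 in 4 of 8 animals, and its values ran from 0 to 5.05 with a median of 0.11. In the BDE-47 mice the lowest value was 0, the median 3.69 and the highest 4.60. Of the 7 BDE-47 mice, 6 lay in a narrow band from 3.42 to 4.60 and mouse 4 was listed at 0, while the vehicle mice were spread over the whole range, with mouse 4 at 5.05 above every BDE-47 mouse. The groups therefore overlapped. The means were 1.42 in vehicle and 3.33 with BDE-47, a difference of 1.91 on the log2 scale (3.76-fold). Restricted to mice above the floor, the difference was 1.04, from the means of 4 vehicle and 6 BDE-47 mice. Among those 4, vehicle mouse 8 lay close to the floor at 0.23 (14 reads) and lowered the vehicle mean. The difference was not recomputed without it. As the log2 ratio of mean CPM over all mice, the difference of Parp12 was 1.02.

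**Figure D1:**
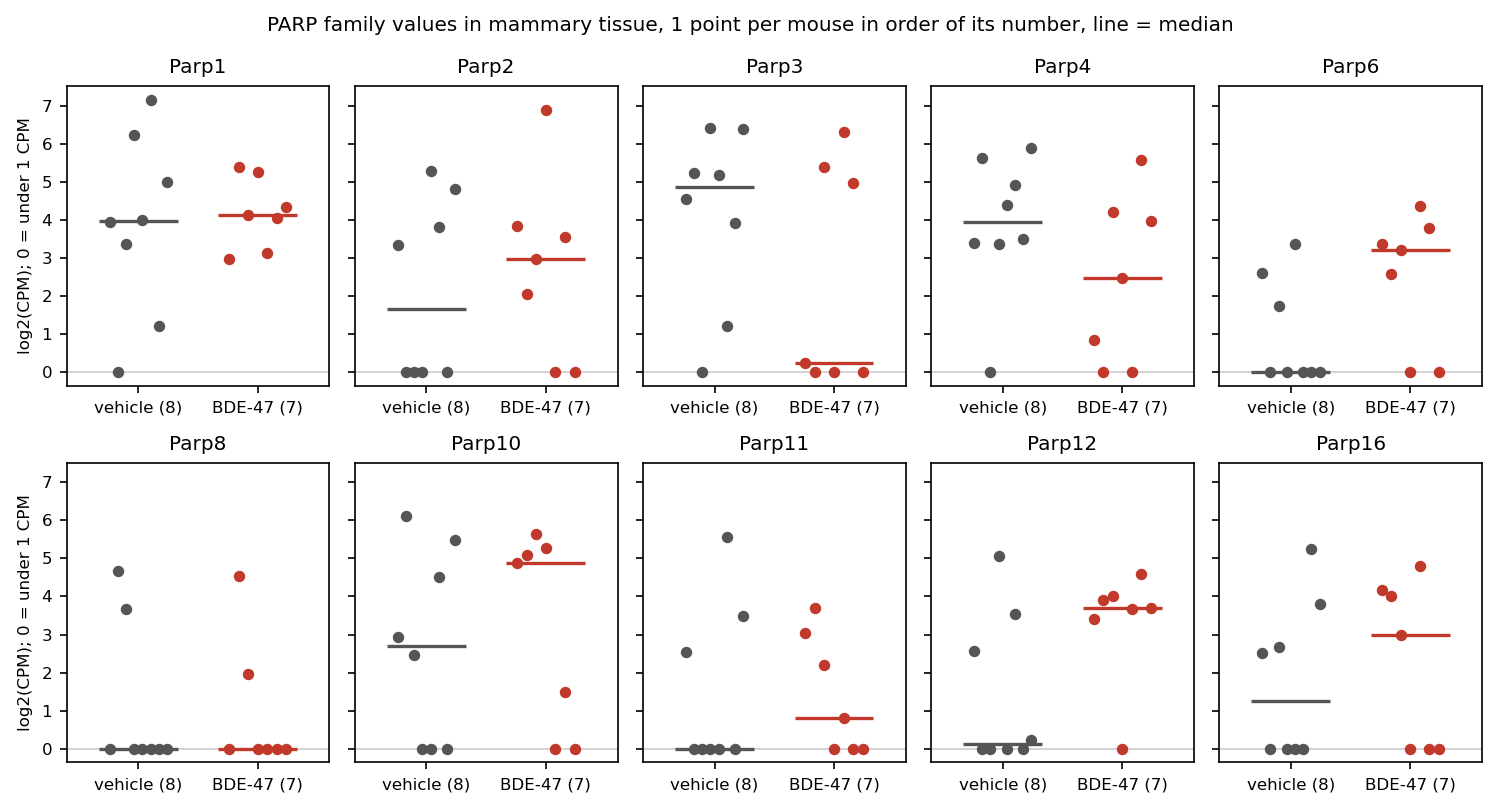
Level of each listed gene as log2(CPM) on the vertical axis in 8 vehicle mice (grey) and 7 BDE-47 mice (red), 1 point per mouse, with a line at the group median; a point at 0 is a gene under 1 CPM. Parp12 is above 0 in 6 of 7 BDE-47 mice and in 4 of 8 vehicle mice, and the groups overlap in every panel.

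The closest to Parp12 in the size and direction of its difference was Parp6, a mono-ADP-ribosyltransferase studied in neurons and in cell division. In vehicle it was listed at 0 in 5 of 8 mice and reached 3.36 at most, with a median of 0. With BDE-47 it was above the floor in 5 of 7 mice, with a median of 3.20 and a highest value of 4.36. The 5 BDE-47 mice above the floor read 2.59 to 4.36 and the 3 such vehicle mice 1.74 to 3.36. Over those mice the difference was 0.90, and as the log2 ratio of mean CPM over all mice it was 1.80. The groups thus differed in the number of mice above the floor and, with overlap, in the level of those mice. The difference of means was 1.51 ± 0.92 (SE) on the log2 scale (2.85-fold), with a 95% interval from -0.34 to 3.36. It did not pass limma's test (adjusted p = 0.982 over the 9511 genes tested, which were those above the floor in at least 7 mice; 8 vehicle and 7 BDE-47 mice). In 5 of the 6 BDE-47 mice with Parp12 above the floor Parp6 was above it too, compared with 1 of 4 such vehicle mice. Parp8 (2 of 6 beside 0 of 4) and Parp16 (4 of 6 beside 2 of 4) went the same way. Parp2, Parp10 and Parp11 (4 of 6 beside 3 of 4) and Parp3 and Parp4 (4 of 6 beside 4 of 4) went the other way. Parp1 was above the floor in all of these mice. The same comparison was not made for all tested genes.

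The members that act at DNA breaks differed in no shared direction. Parp1, the founding enzyme of the family and the main source of poly-ADP-ribose after DNA damage, exceeded the floor in every BDE-47 mouse and in 7 of the 8 given vehicle. Its vehicle values ran from 0 to 7.16 with a median of 3.98, and its BDE-47 values from 2.97 to 5.38 with a median of 4.13. The medians were close together and the BDE-47 mice lay inside the vehicle range. The difference of means was 0.32 ± 0.90 (SE; 95% interval from -1.51 to 2.14; limma adjusted p = 0.994), and it changed sign to -0.24 when vehicle mouse 2, the single mouse with Parp1 at 0, was left out.

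Parp2, which shares the DNA break response with Parp1, was listed at 0 in 4 mice of the vehicle group and in 2 of the BDE-47 group. Its vehicle values had a median of 1.67 and a highest value of 5.29, and its BDE-47 values a median of 2.97 and a highest value of 6.88, in mouse 4. The difference was 0.59 ± 1.17 (SE; limma adjusted p = 0.994). Over mice above the floor it was -0.46, and without BDE-47 mouse 4 it was -0.09, so the sign depended on that mouse and on how values at the floor were treated.

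Parp3, which works in the joining of double-strand breaks, differed in the opposite direction from Parp12. In vehicle 7 of 8 mice read 1.21 to 6.42, and the vehicle median including the mouse at 0 was 4.86. In the BDE-47 group 3 mice were at 0, mouse 1 read 0.25, and the other 3 mice read 4.97 to 6.32. The BDE-47 values thus fell into a low set of 4 mice and a set of 3 within the vehicle range. The difference of means was -1.69 ± 1.16 (SE; 3.24-fold lower; 95% interval from -4.04 to 0.65) and did not pass limma's test (adjusted p = 0.982). Over mice above the floor it was -0.47.

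Parp4, the PARP of the vault particle, a large ribonucleoprotein of the cytoplasm, was also lower in mean with BDE-47. Of the vehicle mice 7 read 3.38 to 5.89 and mouse 3 was at 0, with a group median of 3.94. The BDE-47 mice ran from 0, in 2 mice, to 5.57, with a median of 2.47. The difference was -1.45 ± 1.07 (SE; 2.74-fold lower; 95% interval from -3.61 to 0.70; limma adjusted p = 0.982). Over mice above the floor it was -1.03, still past 2-fold, but the BDE-47 mean there includes mouse 1 at 0.84 (18 reads). The -0.47 of Parp3 over such mice includes the same mouse at 0.25 (12 reads). Neither difference was recomputed without that mouse. As log2 ratios of mean CPM neither gene was past 2-fold (Parp3 -0.69, Parp4 -0.92).

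Differences of the remaining mono-ADP-ribosyltransferases were smaller. Parp10, which modifies signalling and DNA replication proteins, exceeded the floor in 5 mice of each group. Its medians were 2.69 in vehicle and 4.87 with BDE-47, its highest values 6.10 and 5.64, and its difference of means 0.51 ± 1.19 (SE; limma adjusted p = 0.994). Although the medians were far apart, the vehicle group held the highest single value and each group had mice at 0.

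Parp16, a tail-anchored enzyme of the endoplasmic reticulum that takes part in the unfolded protein response, was above the floor in 4 mice of each group. Its vehicle median was 1.26 and its highest vehicle value 5.25, compared with 2.98 and 4.81 with BDE-47. The difference was 0.50 ± 1.07 (SE; limma adjusted p = 0.994).

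Parp11, known for its part at the nuclear envelope and in interferon receptor turnover, had a vehicle median of 0 and a highest vehicle value of 5.55, in mouse 6. Its BDE-47 median was 0.80 and its highest BDE-47 value 3.70. The difference was -0.06 ± 0.91 (SE; limma adjusted p = 1.00), while over mice above the floor it was -1.42 and as the log2 ratio of mean CPM -1.02. Parp8, a member of which less is known, was above the floor in 2 mice of each group, with highest values of 4.68 in vehicle and 4.55 with BDE-47. It was seen in too few mice for the test, and its difference was -0.11.

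Over the whole list, 6 genes were higher and 4 lower in mean with BDE-47. A difference of 2-fold or more upward was seen in 2 of 10 (Parp12 and Parp6), beside 13% of all 9511 tested genes, and downward in 2 of 10 (Parp3 and Parp4), beside 13.2%. The first of these counts includes Parp12, which was chosen for it. Without BDE-47 mouse 5, or without BDE-47 mouse 7, the upward count was 4 of 10, beside 13.8% and 14.8% of all tested genes, and by group medians it was 5 of 10, beside 19.8%. The median difference was 0.41 over the 10 genes and 0.32 without Parp12, beside -0.02 over all tested genes, and it ran from 0.03 (without vehicle mouse 7) to 0.65 (without vehicle mouse 6) when 1 mouse was left out. Of the 8 listed genes tested apart from Parp12, 0 passed limma at an adjusted p under 0.05, and 0 had an unadjusted p under 0.05. In the same fit, 0% of all tested genes passed after adjustment, with a lowest adjusted p of 0.982, and 4.66% had an unadjusted p under 0.05. The intervals were wide: for Parp1, Parp2, Parp10, Parp11 and Parp16 they held a 2-fold difference in either direction, for Parp6 a 2-fold rise but no 2-fold fall, and for Parp3 and Parp4 a 2-fold fall but no 2-fold rise.

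**Figure D2:**
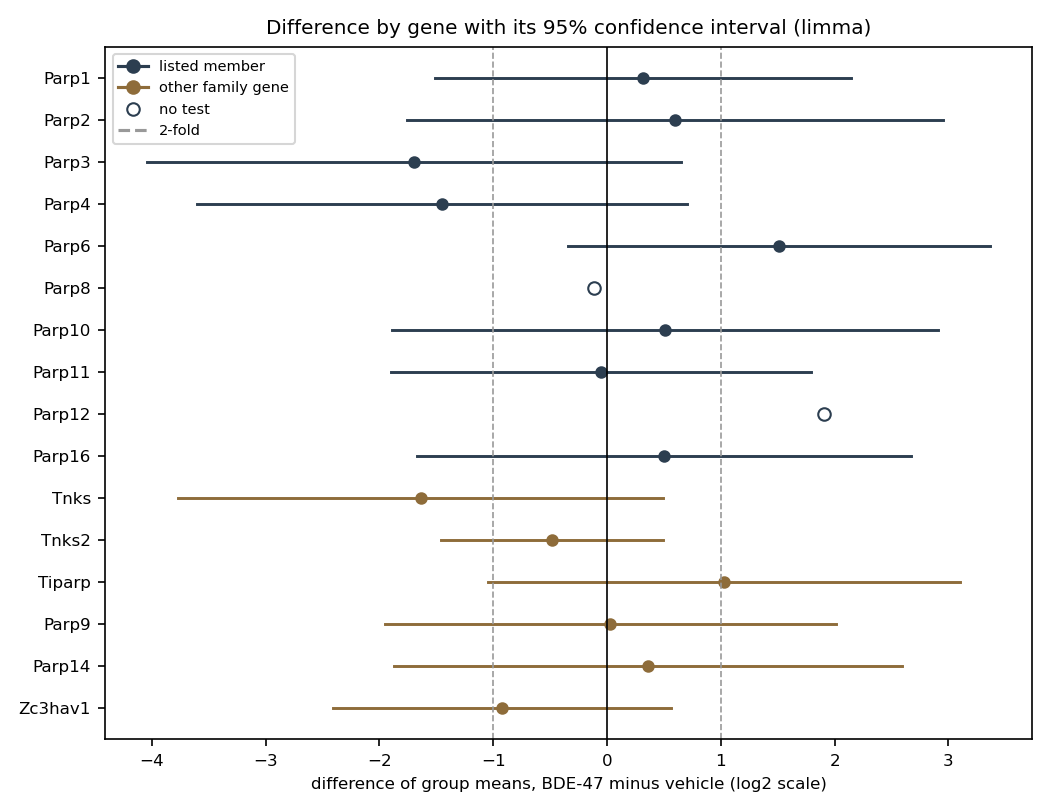
Difference of group means, BDE-47 minus vehicle, on the log2 scale for the 10 listed genes (dark) and 6 other family genes (brown), with 95% confidence intervals from limma; open circles have no test and dashed lines mark 2-fold. Every interval includes 0, and Parp12 (1.91), Parp6 (1.51), Parp4 (-1.45) and Parp3 (-1.69) lie outside the dashed lines among the listed genes.

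The 10 listed genes were sparsely detected. None of them was above the floor in every mouse, and 57 of 150 values (38.0%) were at 0, compared with 20.7% of the values of all tested genes. The 57 include 11 values of Parp8, which was itself seen in too few mice to be a tested gene. Among the 6 other family genes described below, 13 of 90 values (14.4%) were at 0, so the sparseness was not one of the whole family. By group, 34 of 80 values were at 0 in vehicle and 23 of 70 with BDE-47. At the recovered depth of 10.06 to 19.58 M mapped reads, 1 CPM stands for 10.06 to 19.58 reads, and the values above the floor rested on 12 to 2286 reads with a median of 224. For Parp1 the mean over all mice, 29.7 CPM, corresponds to about 439 reads at the median depth, and yet vehicle mouse 2 was listed at 0. A value of 0 is therefore given here only as listed at 0.

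The number of listed genes above the floor varied with general detection at the extremes, and less clearly between them. BDE-47 mouse 3, with 99.3% of the tested genes above the floor, had all 10 listed genes there, and vehicle mouse 1 (96.5%) and BDE-47 mouse 1 (89.9%) had 9 each. At the other end, BDE-47 mouse 7 (69.0%) had 3 and BDE-47 mouse 4 (66.6%) had 4. In between, vehicle mice 8 (74.0%) and 6 (73.8%) had 8 and 7, more than vehicle mice 3 (81.8%) and 4 (78.5%) with 5 and 4. The single BDE-47 mouse with Parp12 at 0 was thus the mouse with the fewest genes detected of all 15. The median share of tested genes above the floor was 74.3% in vehicle and 79.3% with BDE-47, and the median number of listed genes above it was 5 and 7. The part of this general detection in the difference of Parp12 or Parp6 was not tested.

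**Figure D3:**
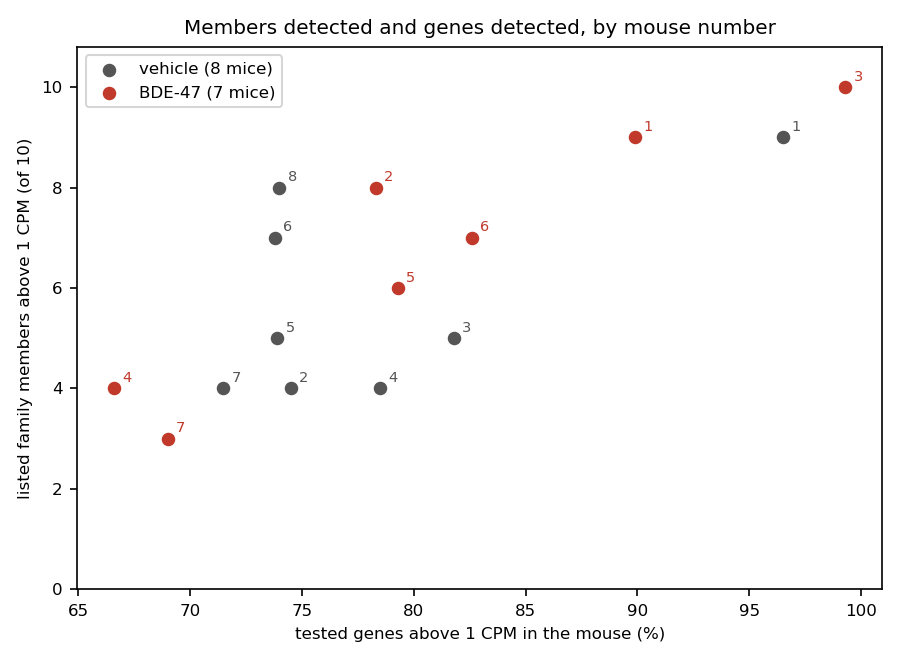
Number of the 10 listed genes above 1 CPM in each mouse against the share of all tested genes above 1 CPM in that mouse (%), with mouse numbers beside the points (vehicle grey, BDE-47 red). The mice with 9 or 10 listed genes have 89.9% to 99.3% of tested genes, and the mice with 3 or 4 have 66.6% to 78.5%.

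The tissue also differed between mice in what it contained. All 8 B cell markers were above the floor in vehicle mice 6 and 8, with summed levels of 649.9 and 721.7 CPM, compared with 0 to 9.9 CPM in the other 13 mice, where at most 1 was above it. The same mice had the lowest summed level of the 8 adipocyte markers, 324.9 and 872.2 CPM beside 2443.6 to 20442.3 CPM elsewhere. BDE-47 mouse 6 had 102729 CPM of 8 skeletal muscle markers, compared with 48.6 to 216.0 CPM in all other mice. Luminal and basal epithelial markers, which define mammary tissue, were present in every mouse, at summed levels of 45.0 to 3701.6 CPM and 46.8 to 650.7 CPM. They were lowest in vehicle mice 6 and 8 and BDE-47 mouse 6, at 45.0, 189.0 and 190.2 CPM (luminal) and 77.6, 46.8 and 73.3 CPM (basal). Every other mouse had at least 750.3 and 343.8 CPM. Macrophage markers summed to 1562.6 and 2232.0 CPM in vehicle mice 6 and 8, beside at most 918.3 CPM elsewhere. In bulk tissue, fewer cells of a type and less RNA per cell cannot be told apart.

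Several listed genes were high in those vehicle mice. Parp1 had its highest value of all mice, 7.16, in vehicle mouse 6, Parp11 its highest, 5.55, in the same mouse, and Parp4 its highest, 5.89, in vehicle mouse 8. Without vehicle mice 6 and 8 the difference of Parp1 became 1.05, that of Parp2 1.31 and that of Parp10 1.28, and that of Parp11 turned from -0.06 to 0.97. Parp12 (2.06), Parp6 (1.19) and Parp3 (-1.80) kept their direction and lay past 2-fold, and Parp4 fell short of it at -0.95. Upward differences of 2-fold or more were then seen in 5 of 10 genes, beside 12.8% of all tested genes, and downward ones in 1 of 10, beside 14.2%. The median difference of the list was 1.01, beside -0.07 over all tested genes. None of the 8 tested genes other than Parp12 passed limma in this subset, where the lowest unadjusted p among them was 0.137 and the lowest adjusted p 0.990.

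With BDE-47 mouse 6 left out as well, Parp12 (1.85), Parp10 (1.56), Parp11 (1.20), Parp2 (1.18) and Parp1 (1.08) were higher by 2-fold or more, and Parp3 (-2.22) and Parp4 (-1.47) lower, while Parp6 stood at 0.97. These were 5 and 2 of 10 genes, beside 14.6% and 14.4% of all tested genes, and the median of the list was 1.02. Among the members tested, the lowest unadjusted p was 0.0894 and the lowest adjusted p 0.968 by limma. The direction of Parp12, Parp6, Parp3 and Parp4 was therefore the same with and without these 3 libraries, as was that of every other listed gene except Parp11. The count of higher members, however, changed with the vehicle mice that had B cell markers. The part of tissue content in these differences was not tested.

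**Figure D4:**
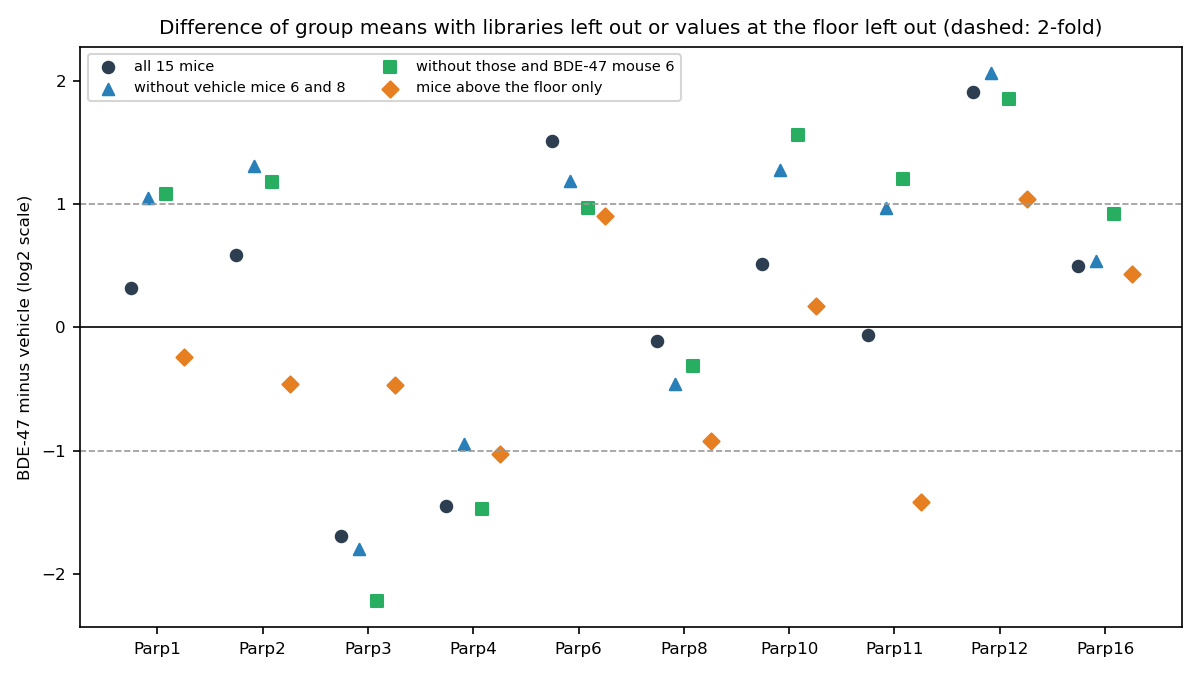
Difference of group means, BDE-47 minus vehicle, on the log2 scale for each listed gene with all 15 mice (circles), without vehicle mice 6 and 8 (triangles), without those and BDE-47 mouse 6 (squares), and over mice above the floor only (diamonds); dashed lines mark 2-fold. Parp12, Parp6, Parp10 and Parp16 stay above 0 and Parp3, Parp4 and Parp8 below 0 in all 4 versions, while Parp1, Parp2 and Parp11 change sign.

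The other 6 genes of the family, named here because their products share the catalytic domain, were no more uniform. The tankyrases Tnks and Tnks2 attach poly-ADP-ribose chains to proteins of telomeres and of Wnt signalling. Tnks ran from 0 to 6.58 in vehicle with a median of 4.31 and from 0 to 5.34 with BDE-47 with a median of 2.18, a difference of -1.64 ± 1.05 (SE; limma adjusted p = 0.982). Tnks2 exceeded the floor in every mouse, at 5.90 to 7.27 in vehicle and at 3.61 to 7.29 with BDE-47, and its difference was -0.48 ± 0.48 (SE; limma adjusted p = 0.982). Among the family genes it had the narrowest interval, from -1.46 to 0.49, which does not reach a 2-fold rise.

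Tiparp, a mono-ADP-ribosyltransferase that is a known target of the aryl hydrocarbon receptor and a repressor of it, had a vehicle median of 0.41 and a BDE-47 median of 3.06. It exceeded the floor in 4 vehicle and 6 BDE-47 animals, the same numbers as Parp12, and in the BDE-47 group the same 6 mice were above the floor for the pair. The BDE-47 mouse with both at 0 was mouse 4, which had the smallest share of tested genes above the floor (66.6%). How many other genes share this pattern was not counted. Its difference was 1.03 ± 1.03 (SE; 2.04-fold; limma adjusted p = 0.982). In the vehicle group, 2 of the 4 mice with Parp12 above the floor also had Tiparp there.

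The remaining genes belong to the antiviral branch. Parp9, which forms a complex with the ubiquitin ligase DTX3L, had medians of 3.79 in vehicle and 3.89 with BDE-47 and a difference of 0.03 ± 0.98 (SE). Parp14, a macrodomain protein of macrophage signalling, had medians of 4.12 and 4.10 and a difference of 0.36 ± 1.11 (SE). Zc3hav1, the catalytically inactive antiviral protein ZAP that binds viral RNA, was above the floor in every mouse, with medians of 4.86 and 4.18 and a difference of -0.93 ± 0.74 (SE). None of these 3 passed limma's test (adjusted p of 0.982 to 1.00), and for each of them the groups overlapped. Of the 6 genes, 1 was higher and 1 lower by 2-fold or more, beside 13% and 13.2% of all tested genes, and 0 passed.

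**Figure D5:**
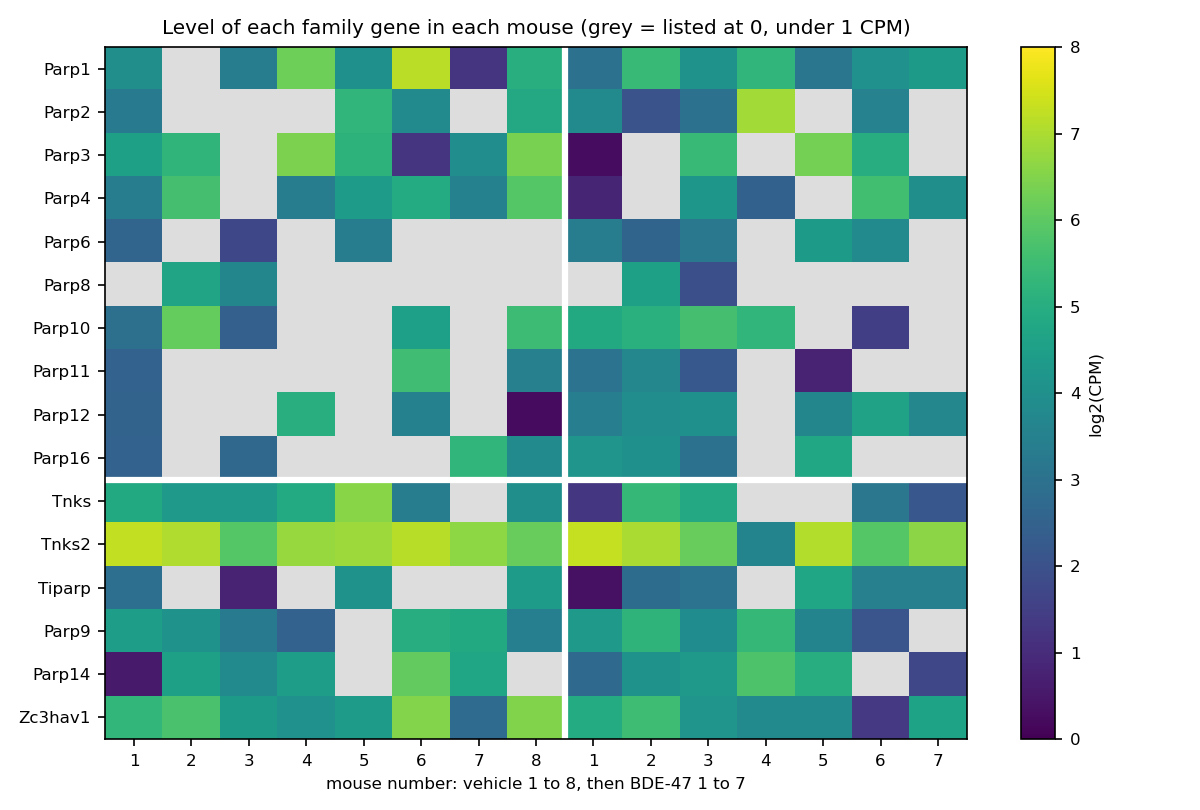
Level of the 10 listed genes (top) and 6 other family genes (bottom) in each mouse, vehicle 1 to 8 and then BDE-47 1 to 7, coloured by log2(CPM), with grey where the gene is listed at 0. Tnks2 and Zc3hav1 are above 0 in every mouse, while the listed genes have 57 grey cells of 150, and BDE-47 mouse 4 is grey for 6 of the 10.

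Genes that read, bind or remove ADP-ribose, or that supply its NAD+, were counted for context. Of 15 turnover genes found, 11 were tested. By 2-fold or more 2 of the 15 were higher and 2 lower, beside 13% and 13.2% of all tested genes. After adjustment 0 passed limma, and 1 of the 11 had an unadjusted p under 0.05, beside 4.66% of all tested genes. The largest rise among the tested ones was that of Macrod1, a hydrolase that removes mono-ADP-ribose, at 1.41 ± 1.19 (SE; limma adjusted p = 0.982), with BDE-47 values from 0 to 7.01 and vehicle values from 0 to 5.05. The largest fall among the tested ones was that of Rnf146, the ubiquitin ligase that recognises poly-ADP-ribosylated proteins and acts with the tankyrases. All 8 vehicle mice had it above the floor, from 3.49 to 6.00, compared with 4 of 7 BDE-47 mice, whose highest value was 4.64. Its difference was -2.60 ± 0.95 (SE; 6.08-fold lower; unadjusted p = 0.00912, adjusted p = 0.982 by limma), so that it did not pass after adjustment over all tested genes.

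Of 11 NAD+ supply genes, 4 were tested and 0 passed, and 0 of those 4 differed by 2-fold. Among the tested 4 the largest rise was that of Naprt, which makes NAD+ from nicotinic acid, at 0.78 ± 0.84 (SE). Nadk, the cytosolic NAD+ kinase, was the only one of the 4 with a lower mean, at -0.05 ± 0.54 (SE), and exceeded the floor in every mouse. Over all 11 genes, the 7 seen in too few mice for the test included, 1 was higher and 1 lower by 2-fold or more. The shares of all tested genes were 13% and 13.2%.

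Because several family members are interferon-induced, 30 interferon-stimulated genes were counted beside them. By group means 25 were lower and 5 higher with BDE-47, beside 50.9% of all tested genes lower, and 9 were lower and 0 higher by 2-fold or more, beside 13.2% and 13% of all tested genes. Of the 21 tested, 0 passed limma after adjustment and 1 had an unadjusted p under 0.05, beside 4.66% of all tested genes. The list median was -0.50, beside -0.02 over all tested genes. For the 10 family genes it was 0.41, and 0.32 without Parp12, but most of these 10 are not among those named above as interferon-induced. Irf7, the transcription factor that amplifies the interferon response, had medians of 3.76 in vehicle and 1.82 with BDE-47 (difference -1.81 ± 1.09, SE). Isg15, a ubiquitin-like modifier, had medians of 4.26 and 3.94 (difference -2.02 ± 1.06, SE). Neither passed (limma adjusted p = 0.982), and both had their highest vehicle values in vehicle mice 6 and 8. Without those 2 mice 15 of the 30 genes were lower and 15 higher, 5 lower and 1 higher by 2-fold or more, and the list median was -0.02, with Irf7 at -1.01 and Isg15 at -1.27. With BDE-47 mouse 6 left out too, 13 were lower and 17 higher and the median was 0.04. These counts, added after seeing the data, changed with the vehicle mice that had B cell markers, and the difference of Parp12 was 2.06 without them.

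The genes outside the list whose values over the 15 mice were most like those of Parp12, among 9502 tested genes, were Mdc1 (Pearson r = 0.875, Spearman rho = 0.731), Dusp28 (r = 0.855, rho = 0.824) and Tet2 (r = 0.849, rho = 0.714). These are descriptions over 15 libraries that share depth and detection, picked as the highest of many, and no p is given. Mdc1 encodes a mediator of the DNA damage checkpoint, Dusp28 a phosphatase and Tet2 an enzyme that oxidises methylcytosine. Like Parp12, all 3 were at 0 in BDE-47 mouse 4 and above the floor in the other 6 BDE-47 mice, and all 3 were at 0 in vehicle mouse 2. Their values were above the floor in 3, 2 and 5 of 8 vehicle mice.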

How the data were processed

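RNA was measured in the left 4th mammary tissue of 15 mice (8 vehicle, 7 BDE-47), 1 library per mouse. Per the labels and the study's methods, libraries were QuantSeq 3′ FWD, reads were mapped with STAR 2.5.3a, GRCm38 is the build in the submitters' processing notes, and counts were normalized to CPM. The deposited tables hold log2(CPM), in which the authors put 0 for any gene under 1 CPM. The log2 scale and the floor of 1 CPM were read from the values. The spacing of the low values also gave each depth (10.06 to 19.58 M mapped reads). Each depth was fitted to those low values, which were then all whole within 0.1 reads. Of 52636 entries per mouse, 110 repeated a gene name and were dropped, keeping the entry with the higher mean.

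Groups came from the treatment label. Genes above the floor in at least 7 mice (9511) were tested with limma 3.58.1 in R 4.3.3 (moderated by empirical Bayes, prior variance with a trend, two-sided, 15 mice, no covariate), with Benjamini-Hochberg adjustment over all of them. The xenograft covariate that the study used is not in the labels. Genes past 2-fold were counted from group means without a test. The limma step was tried on the deposited values shuffled within each gene, with a known change added to some genes. That change was larger than any difference of the listed genes, so the trial does not show whether differences of their size would be found. Nothing says whether mice shared a cage or litter, and 1 library per mouse leaves technical and biological spread together. Alternatives were log2(CPM + 1), rescaling to the reads on genes above the floor, medians, the ratio of mean CPM, other gene filters, a replicate block and leaving out mice.

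The members, the lists and the alternatives were chosen with earlier results of these data known. Named genes were all 10 members, 6 other family genes, the tested genes with the largest rise and fall of the ADP-ribose turnover and NAD+ lists, Irf7 and Isg15, and the 3 genes most like Parp12. A further gene that this rule names is not reported here. Other interferon genes and markers of B cells, macrophages, adipocytes, luminal and basal epithelium, skeletal muscle and endothelium were counted only. Macrophage markers summed to 128.8 to 2232.0 CPM and endothelial markers to 67.6 to 447.6 CPM over the mice. Promoters came from a RefSeq table (GRCm38.p6). Figures were drawn with matplotlib 3.10.9.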

Additional observations from a re-analysis of the deposited data

Results flagged for a closer look

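Values of the 10 listed and 6 other family genes were examined in each group for a mouse far from the rest, by the gap to its nearest neighbour over the range of the group (Dixon's ratio, at its 95% critical value). Of 32 groups 5 held such a mouse. The critical values assume a normal spread, which values listed at 0 do not have, so no rate by chance is set beside this count. Parp12 was listed at 0 in BDE-47 mouse 4, with the next value at 3.42 (ratio 0.743). In the same mouse Tnks2 was at 3.61 on the log2(CPM) scale, with the next value at 5.90 (0.622), and this mouse had the smallest share of tested genes above the floor. Parp4 was listed at 0 in vehicle mouse 3, with the next value at 3.38 (0.574). Parp8 reached 4.55 in BDE-47 mouse 2, with the next value at 1.96 (0.569). Zc3hav1 stood at 1.32 in BDE-47 mouse 6, the mouse with the high skeletal muscle markers, with the next value at 3.80 (0.590).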

How the results depend on the processing

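The differences of Parp12, Parp6, Parp3 and Parp4 kept their direction under all alternatives run, those that left out a mouse included (1.70 to 2.46, 1.20 to 1.92, -2.35 to -1.29 and -2.01 to -1.05 with 1 mouse left out). These 4 differences were the largest of the list, and Parp12 was chosen for its own, so their kept direction is a description and no support. Those of Parp10 and Parp16 also stayed above 0 throughout (0.10 to 1.04 and 0.08 to 1.00 with 1 mouse left out). Their standard errors, 1.19 and 1.07, were larger than their differences, 0.51 and 0.50. With 1 mouse left out, 2 to 4 members were higher and 2 lower by 2-fold or more (4 without BDE-47 mouse 5 or 7), the list median ran from 0.03 to 0.65, and limma called 0 genes. In those fits Parp1 ran from -0.24 to 0.79, Parp2 from -0.09 to 1.05, Parp8 from -0.72 to 0.41 and Parp11 from -0.44 to 0.53, each across 0. By group medians 5 members were higher, and Parp11 stood at 0.80. Over mice above the floor 1 was higher, with Parp1 at -0.24, Parp2 at -0.46 and Parp11 at -1.42. By the ratio of mean CPM 1 was lower, Parp11 (-1.02), with Parp3 at -0.69, Parp4 at -0.92, Parp12 at 1.02 and Parp1 at -0.76. With log2(CPM + 1) Parp11 was at 0.07. Without vehicle mice 6 and 8, 5 were higher and 1 lower, Parp11 was at 0.97 and the list median at 1.01. Leaving out BDE-47 mouse 6 too, a choice made after seeing the data, gave 5 higher, Parp11 at 1.20 and 2 genes called by limma, Wfdc18 and Chchd2, neither of the family and named after their values were seen. The causes were not tested. Same-numbered mice correlated at -0.018 to 0.053 after group means were removed, so the numbers were not taken as a pairing. With the number as a replicate block, limma called 0 genes, 2 members were higher and 2 lower, the list median was 0.63 and Parp11 was at 0.24. The share of all tested genes past 2-fold was not counted with this block, over mice above the floor or by the ratio of mean CPM. Depth, the floor and the spread between mice all limit these comparisons, and the xenograft status of each mouse was not analysed here.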
